A study of Mus musculus with 18 samples.

Results

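Lysosomal hydrolases and lysosomal membrane proteins were followed through sorted cells of the mouse retina. The 32 genes were taken by name from a table of counts that lists 55487 genes, cathepsins being left out, and all 32 were found there. By role they were 10 glycosidases, 4 sulfatases, 6 lipases and sphingolipid enzymes with their cofactors, 2 genes called here proteases and progranulin, 2 genes of cholesterol export and 8 membrane glycoproteins and channels. Sorting on CD11b had given a positive fraction, called microglia here, and a negative fraction of the other retinal cells, called retina here. CD11b is a surface integrin of microglia and other myeloid cells. The knockouts were Bmal1-mg/-mg mice, in which microglia were to lack the circadian clock gene Bmal1, and the controls were Bmal1f/f mice, which carry floxed copies of that gene. There were 5 knockout microglia, 4 control microglia, 5 knockout retina and 4 control retina libraries, 18 in all. The labels name no Cre driver, age or sex, and nothing in them says that libraries of a group came from separate animals, so the p-values speak only for the spread among libraries, which may be technical in part. The comparison asks whether lysosomal transcripts differ when microglia lack Bmal1, in the microglia and in the cells around them.

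Lysosomes are acidic organelles in which soluble hydrolases take apart sugars, lipids, proteins and glycosaminoglycans, while membrane proteins protect the organelle wall and carry products and ions across it. Most of the soluble enzymes are tagged with mannose 6-phosphate in the Golgi and delivered by receptors, and inherited loss of a single enzyme leads to a storage disease. Microglia are the resident phagocytes of the retina, and rods shed and renew their photopigment membranes each day. Many lysosomal genes carry E-box-like promoter elements bound by the transcription factors TFEB and TFE3. The core of such an element is CACGTG, which is also the core of the E-box that the heterodimer of BMAL1 and CLOCK binds.

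The libraries held between 32277156 and 47563119 counts. The number of genes with a count did not overlap between genotypes in either fraction, at 17343 to 18438 in knockout microglia and 18654 to 19363 in control microglia, and at 18761 to 19713 in knockout retina and 16510 to 18715 in control retina. Values below are CPM, counts relative to the TMM-scaled size of the library, and levels of different genes are compared only per length, as TPM. The gene of BMAL1, listed as Arntl, had 2.10 to 24.1 CPM in knockout microglia and 9.89 to 26.9 CPM in control microglia. These ranges overlapped, and the count covers the whole gene whichever part was deleted, so the genotypes were taken as labelled. Xist, a transcript of female cells, had 40.3 CPM in knockout microglia replicate 1 and 42.0 CPM in control microglia replicate 1. Ddx3y, a gene of the Y chromosome, had 0 CPM in both, but reached 41.7 CPM in knockout microglia and 47.5 CPM in control microglia. The libraries of these groups were thus not all of the same animal. How many animals they held is not given, and sex was not entered in the fits. The 20 microglia markers summed to 75519 to 83028 CPM in the microglia libraries and to 8.20 to 25.4 CPM in the retina libraries, where 8 of them were at 0 throughout in knockouts and 4 in controls. The summed CPM of 18 rod markers in knockout microglia was 6.86% of that in knockout retina, and in control microglia it was 5.09% of that in control retina. Fewer cells of a type and less RNA per cell cannot be told apart in these bulk libraries.

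Promoter windows of the RefSeq annotation (GRCm38.p6) were used for 30 of the 32 genes, in 32 windows. Each ran from 250 bases before to 50 after the start of the gene. No window was used for Asah1 and Npc1. The letters CACGTG, which read the same on both strands, stood in windows of 8 genes, namely Arsa, Cln3, Gaa, Glb1, Lamp1, Mcoln1, Naglu and Sgsh. They stood in 8 of the 32 windows (25%), against 7.15% of the 32851 windows of all genes. The longer form GTCACGTG, searched on both strands and always overlapping the shorter one, was in 7 of these windows (21.9%), against 2.25% of all windows. The windows of Lamp1 and Mcoln1, which hold 4 and 2 of these elements, and those of Naglu and Gaa, which come back in the genotype comparisons, are given 5′ to 3′ on the strand of the gene, with each CACGTG in capitals. The Lamp1 window lies at chr8:13158911-13159210 on the plus strand, the Mcoln1 window at chr8:3500269-3500568 on the plus strand, the Naglu window at chr11:101069844-101070143 on the plus strand and the Gaa window at chr11:119267713-119268012 on the plus strand.
Lamp1: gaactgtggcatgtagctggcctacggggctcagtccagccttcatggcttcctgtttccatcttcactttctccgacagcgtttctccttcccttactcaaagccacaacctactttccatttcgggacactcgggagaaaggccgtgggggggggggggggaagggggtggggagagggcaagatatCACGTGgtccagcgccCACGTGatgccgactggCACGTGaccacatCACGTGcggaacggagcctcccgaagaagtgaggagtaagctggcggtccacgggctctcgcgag
Mcoln1: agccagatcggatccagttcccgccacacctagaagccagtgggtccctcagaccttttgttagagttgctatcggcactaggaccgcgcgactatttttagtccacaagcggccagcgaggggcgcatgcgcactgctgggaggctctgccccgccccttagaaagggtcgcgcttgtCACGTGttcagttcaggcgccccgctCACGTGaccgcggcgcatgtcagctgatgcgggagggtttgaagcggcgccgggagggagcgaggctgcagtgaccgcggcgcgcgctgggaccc
Naglu: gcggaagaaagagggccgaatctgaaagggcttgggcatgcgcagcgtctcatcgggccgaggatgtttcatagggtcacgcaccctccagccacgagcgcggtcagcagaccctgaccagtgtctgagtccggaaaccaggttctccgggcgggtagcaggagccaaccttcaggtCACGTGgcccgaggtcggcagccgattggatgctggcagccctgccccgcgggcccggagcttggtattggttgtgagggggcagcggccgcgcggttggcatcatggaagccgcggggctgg
Gaa: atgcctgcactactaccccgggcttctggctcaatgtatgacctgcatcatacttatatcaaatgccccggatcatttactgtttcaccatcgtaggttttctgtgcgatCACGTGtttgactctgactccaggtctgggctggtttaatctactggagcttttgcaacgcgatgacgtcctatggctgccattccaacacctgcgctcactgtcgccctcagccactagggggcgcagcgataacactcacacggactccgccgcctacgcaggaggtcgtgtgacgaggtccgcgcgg

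The 4 elements of Lamp1 were centred 58, 42, 25 and 12 bases before the annotated start, those of Mcoln1 68 and 42 bases before it, and those of Naglu and Gaa 70 and 137 bases before it. Only 8 of all 32851 windows held 4 or more of these elements. A match of letters is a description of the window and says nothing of binding in these cells.

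In microglia the transcripts of these genes were abundant and unequal. Per length, Psap led in both genotypes, with 8720 ± 593 TPM in knockout microglia and 9327 ± 666 TPM in control microglia (mean ± SD, n = 5 and 4). Psap encodes prosaposin, the precursor of the saposins that present sphingolipids to their hydrolases. Laptm5, a lysosomal membrane protein of blood-derived and myeloid cells, came next with 7699 ± 547 TPM in knockout microglia and 6902 ± 443 TPM in control microglia. The library ranges of these 2 genes overlapped in knockouts and not in controls, and with the longest transcript as the length Laptm5 stood first. Grn, which encodes progranulin, a secreted and lysosomal growth factor, had 3760 ± 216 TPM in knockout microglia and 3332 ± 251 TPM in control microglia. Cd68, a heavily glycosylated lysosomal protein of macrophages, had 3409 ± 108 TPM in knockout microglia and 3115 ± 197 TPM in control microglia, and its range overlapped that of Grn in both genotypes. These 4 genes were followed by Hexa, the alpha subunit of beta-hexosaminidase, Lamp1, a major glycoprotein of the lysosomal membrane, and Man2b1, the lysosomal alpha-mannosidase in both genotypes. By union exon length the lowest levels in both microglia groups were those of Galc, the galactosylceramidase that is lost in Krabbe disease, with 7.26 ± 3.01 TPM in knockouts and 7.06 ± 0.477 TPM in controls. With the longest transcript as the length Galc had 18.8 TPM in knockouts and 18.3 TPM in controls, and Sgsh was last with 12.5 TPM in knockouts and 14.2 TPM in controls. Sgsh, a heparan sulfatase, Npc1, the membrane protein that passes cholesterol out of lysosomes, and Mcoln1, the calcium channel TRPML1, followed upwards from Galc by union exon length. All 32 genes had at least 1 CPM in every microglia library.

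In the retina fraction the order of levels was another. Psap again led, with 1205 ± 122 TPM in knockout retina and 772.5 ± 106 TPM in control retina. It was followed by Lamp1, with 519 ± 76.1 TPM in knockout retina and 560.2 ± 42.3 TPM in control retina, and then by Smpd1. The library ranges of Lamp1 and Smpd1 overlapped in knockouts and were apart in controls. Smpd1, the acid sphingomyelinase lost in Niemann-Pick disease types A and B, had 422 ± 42.0 TPM in knockout retina and 369 ± 17.3 TPM in control retina. Tpp1, the peptidase deficient in late infantile neuronal ceroid lipofuscinosis, was next with 259 ± 27.8 TPM in knockout retina and 249 ± 20.96 TPM in control retina. Gaa, the acid alpha-glucosidase that digests glycogen, and Hexa took places 5 and 6 by union exon length. The range of Hexa overlapped that of Fuca1 in both genotypes, and by the longest transcript Hexa was lower in the order, with Mcoln1 next after Gaa in knockouts and Fuca1 in controls. Cd68 and Laptm5 were last in both genotypes. Taken over its libraries, Cd68 had 3 counts in knockout retina and 0 counts in control retina, and Laptm5 had 82 counts in knockout retina and 98 in control retina.

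Retina libraries also varied more. The median coefficient of variation over the 32 genes was 11.9% in knockout microglia, 9.32% in control microglia, 24.3% in knockout retina and 31.6% in control retina. The last of these medians leaves out Cd68, which had no count in control retina and so no coefficient. Genes of low level fell close to 0 in single retina libraries. Lipa, the acid lipase that frees cholesterol from its esters, had 9.60, 13.2, 21.2, 13.3 and 7.59 CPM in knockout retina and 0, 4.03, 4.97 and 10.1 CPM in control retina. Arsa, the arylsulfatase lost in metachromatic leukodystrophy, had 14.3, 29.6, 0, 22.5 and 19.3 CPM in knockout retina and 4.44, 0.11, 14.0 and 11.9 CPM in control retina. Idua, the alpha-iduronidase of Hurler syndrome, had 1.82, 11.01, 13.9, 8.46 and 0.84 CPM in knockout retina and 8.04, 0.028, 8.90 and 3.82 CPM in control retina. The ranges of the genotypes overlapped for all 3 genes, and each was at 0 or close to it in at least 1 library. In all, 4 genes of the list had a retina library under 1 CPM in knockouts (Idua, Arsa, Cd68 and Laptm5), and 8 had one in controls, among them Gusb, Glb1 and Galc.

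**Figure D1:**
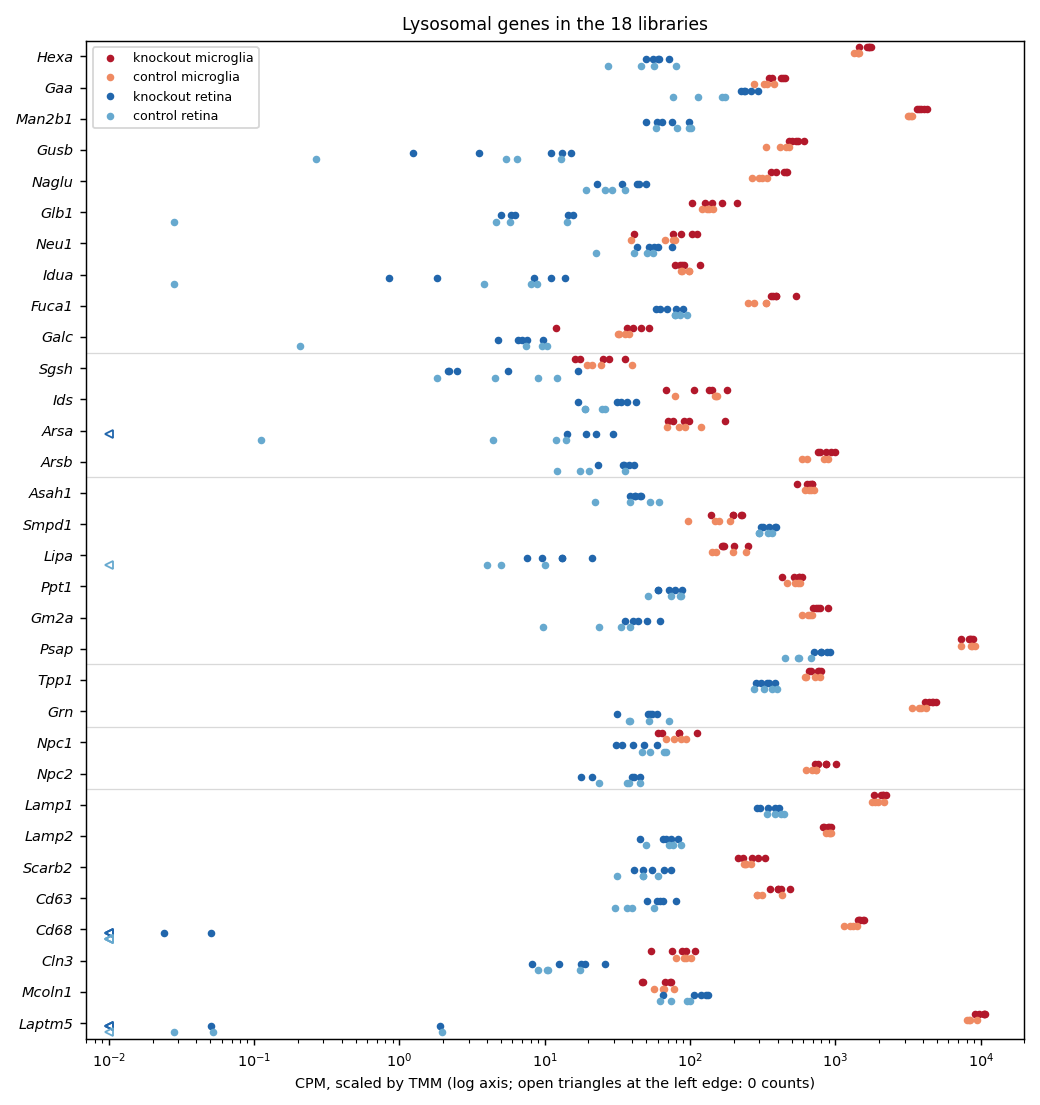
CPM of the 32 lysosomal genes on a log axis, 1 point per library, grouped by role from glycosidases at the top to membrane glycoproteins and channels at the bottom. Microglia libraries lie to the right for nearly all genes, Smpd1 and Mcoln1 being higher in retina, and low genes such as Idua, Arsa and Lipa spread widely in retina.

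The comparison of fractions asks in which fraction the lysosomal transcripts take the larger share of a library. It does not tell how much of the transcripts of the whole retina each fraction holds. Of the 32 genes, 28 were higher in microglia than in retina in knockouts and 27 in controls, at an adjusted p under 0.05 (quasi-likelihood test of edgeR, Benjamini-Hochberg over all genes tested). Of all genes tested, 23.7% were called higher in knockout microglia and 22.8% in control microglia. The median log2 change, microglia over retina, was 3.04 over the list in knockouts and 3.48 in controls, against -0.097 and 0.025 over all genes. Lower in microglia were 2 of the 32 in knockouts, Smpd1 and Mcoln1, and 1 in controls, Smpd1, against 21.2% and 17.4% of all genes. By role, the genes called higher in knockouts were 9 of 10 glycosidases, 3 of 4 sulfatases, 5 of 6 lipases and sphingolipid enzymes, Tpp1 and Grn, Npc1 and Npc2, and 7 of 8 membrane glycoproteins and channels. In controls they were 8 of 10 glycosidases, 4 of 4 sulfatases, 5 of 6 lipases and sphingolipid enzymes, Tpp1 and Grn, Npc2 alone, and 7 of 8 membrane glycoproteins and channels.

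The genes that stood farthest apart were those of the phagocyte membrane. Cd68 (chromosome 11, 69664213 to 69666153, minus strand, GRCm38) had 1427 to 1563 CPM in knockout microglia, against 0 to 0.051 CPM in knockout retina. Its share of counts was 89496 times as high in knockout microglia as in knockout retina, with a 95% counting interval of 30623 to 433975. In controls it had 1154 to 1407 CPM in microglia and no count in retina, which makes its share at least 69245-fold higher, taking a floor of 3 counts over the group. Laptm5 (chromosome 4, 130913125 to 130936141, plus strand) had 9174 to 10715 CPM in knockout microglia and 8104 to 9390 CPM in control microglia. In retina it had 1.91 CPM in knockout replicate 4 and 1.96 CPM in control replicate 4, and at most 0.052 CPM in the other 7 libraries. Such intervals and floors cover counting error alone, since amplified reads are not independent molecules.

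Of the secreted and soluble proteins, Grn, Gusb and Man2b1 differed most in both genotypes, and in controls they were followed by Lipa. Grn had 4603, 4894, 4396, 4725 and 4126 CPM in knockout microglia and 31.5, 59.1, 51.7, 52.7 and 55.0 CPM in knockout retina, a log2 change of 6.43 (SE 0.20, adjusted p = 6.22e-09). In controls it had 3738, 3910, 4199 and 3387 CPM in microglia and 72.2, 38.2, 38.9 and 52.3 CPM in retina, a log2 change of 6.20 (SE 0.27, adjusted p = 2.79e-06). Every microglia library stood far above every retina library. Gusb, the beta-glucuronidase, had 553, 538, 503, 610 and 476 CPM in knockout microglia and 15.2, 13.2, 11.05, 3.53 and 1.24 CPM in knockout retina. In controls Gusb had 418, 479, 456 and 336 CPM in microglia and 6.43, 5.37, 12.9 and 0.27 CPM in retina. The fractions were apart although the retina values of Gusb spread widely, with log2 changes of 5.84 (SE 0.65, adjusted p = 4.4e-05) in knockouts and 6.03 (SE 0.99, adjusted p = 0.00176) in controls. Man2b1 (chromosome 8, 85083270 to 85098282, plus strand), whose microglia values follow with the genotypes, had 74.8, 64.6, 59.7, 49.7 and 98.8 CPM in knockout retina and 81.0, 58.6, 98.5 and 101 CPM in control retina, with log2 changes of 5.74 (SE 0.20, adjusted p = 1.38e-08) in knockouts and 5.23 (SE 0.21, adjusted p = 2.12e-06) in controls. Lipa had 251, 171, 201, 165 and 170 CPM in knockout microglia and 197, 151, 242 and 142 CPM in control microglia, far above the retina values given before. Its log2 changes were 3.80 (SE 0.30, adjusted p = 3.24e-06) in knockouts and 5.22 (SE 1.28, adjusted p = 0.0123) in controls.

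Smpd1 (chromosome 7, 105554360 to 105558389, plus strand) ran the other way, as did Mcoln1. It had 228, 198, 139, 223 and 196 CPM in knockout microglia and 307, 383, 388, 320.3 and 352 CPM in knockout retina (log2 change -0.91, SE 0.15, adjusted p = 0.000602). In controls it had 97.0, 159, 189 and 148 CPM in microglia and 297, 345, 364 and 300.3 CPM in retina (log2 change -1.18, SE 0.21, adjusted p = 0.00288). No microglia library reached any retina library of its genotype. Mcoln1 had 46.6, 73.5, 47.6, 73.2 and 67.3 CPM in knockout microglia and 128, 106, 134, 65.1 and 118 CPM in knockout retina (log2 change -0.92, SE 0.23, adjusted p = 0.00793). In controls Mcoln1 had 65.2, 77.8, 66.4 and 56.3 CPM in microglia and 61.8, 74.5, 95.0 and 99.8 CPM in retina, a log2 change of -0.36 that did not pass (SE 0.20, adjusted p = 0.182). Its ranges overlapped in both genotypes.

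The next smallest changes were those of Neu1, Npc1, Tpp1 and Gaa. Neu1, the lysosomal sialidase, had 103, 112, 40.9, 86.4 and 76.5 CPM in knockout microglia and 56.4, 74.9, 60.1, 42.9 and 51.9 CPM in knockout retina. In controls Neu1 had 78.6, 67.5, 75.9 and 39.0 CPM in microglia and 41.2, 50.9, 55.6 and 22.7 CPM in retina. The fractions of Neu1 overlapped in both genotypes. It passed in neither genotype (log2 change 0.47, SE 0.27, adjusted p = 0.177 in knockouts and 0.57, SE 0.33, adjusted p = 0.214 in controls). Without knockout microglia replicate 3, which had 40.9 CPM, its change in knockouts was 0.72 and passed. Npc1 had 84.5, 60.1, 84.3, 63.7 and 111 CPM in knockout microglia and 86.1, 68.6, 94.2 and 78.0 CPM in control microglia, against the retina values given with the genotypes. Npc1 had log2 changes of 0.84 in knockouts (SE 0.24, adjusted p = 0.0149) and 0.44 in controls (SE 0.19, adjusted p = 0.0978). Tpp1 had 681, 761, 773, 794 and 654 CPM in knockout microglia and 286, 383, 347, 340.5 and 308 CPM in knockout retina. In controls Tpp1 had 723, 789, 625 and 619 CPM in microglia and 276, 398, 369 and 322 CPM in retina. The fractions of Tpp1 did not overlap in either genotype. Tpp1 rose by 1.06 (SE 0.11, adjusted p = 2.5e-05) in knockout microglia relative to knockout retina and by 0.97 (SE 0.15, adjusted p = 0.00149) in control microglia relative to control retina. Gaa had 449, 350.0, 436, 364 and 426 CPM in knockout microglia and 321, 275, 376 and 341 CPM in control microglia, above all retina libraries of the genotype. Gaa rose by 0.61 (SE 0.12, adjusted p = 0.00171) in knockouts and by 1.27 (SE 0.27, adjusted p = 0.00641) in controls. The other genes that passed in only 1 genotype were Galc, with log2 changes of 2.32 (SE 0.40, adjusted p = 0.000814) in knockouts and 2.29 (SE 0.88, adjusted p = 0.0723) in controls, and Arsa, with 2.50 (SE 1.02, adjusted p = 0.0708) in knockouts and 3.54 (SE 1.05, adjusted p = 0.0281) in controls.

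**Figure D2:**
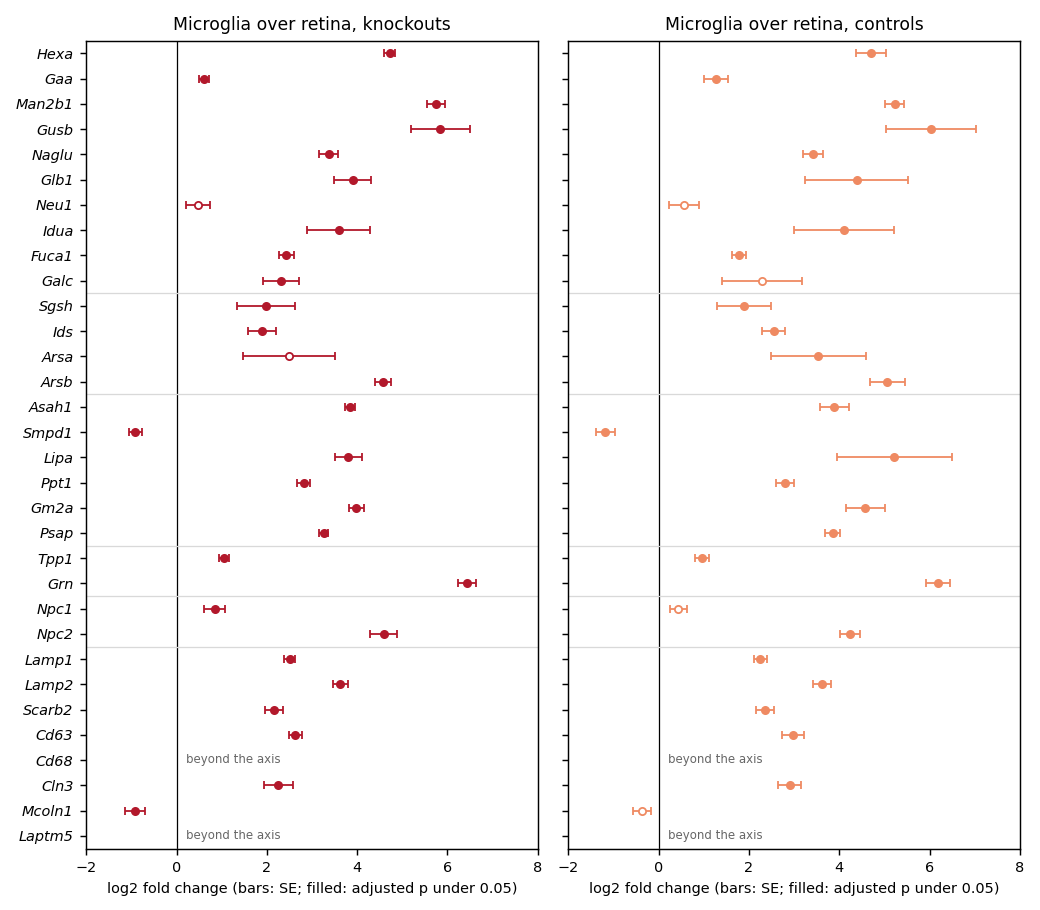
Log2 fold change of microglia over retina for each lysosomal gene, knockouts in the left panel and controls in the right panel, with bars for the SE and filled points for an adjusted p under 0.05. Cd68 and Laptm5 lie beyond the axis, Smpd1 lies left of 0 in both panels, and Grn, Gusb and Man2b1 lie above 5 in both.

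Among related lists, the lysosomal genes outside the 32 followed the same direction and the proton pump did not. Over all genes tested, 23.7% were called higher and 21.2% lower in microglia in knockouts, and 22.8% higher and 17.4% lower in controls. Of 36 other lysosomal hydrolases and cofactors, 35 were tested, and 26 were called higher and 2 lower in microglia in knockouts, and 22 higher and 3 lower in controls. Of 19 subunits of the V-ATPase, which acidifies lysosomes and also synaptic vesicles, 18 were tested, and 7 were called higher and 8 lower in knockouts, and 5 higher and 6 lower in controls. Of 18 genes that sort enzymes to lysosomes, 9 were called higher and 3 lower in knockouts, and 10 higher and 1 lower in controls. Of 19 genes of TFEB-family factors and nutrient sensing, 18 were tested, and 7 were called higher and 3 lower in knockouts, and 8 higher and 1 lower in controls. Tfeb had 110.5 CPM in knockout microglia and 110.2 CPM in control microglia, and 9.75 CPM in knockout retina and 15.3 CPM in control retina, and Tfe3 had 304 and 287 CPM in knockout and control microglia and 62.1 and 46.6 CPM in knockout and control retina. Both were higher in microglia at an adjusted p under 0.05 in each genotype, and they were named for their role and not by the rule for named genes.

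In microglia the fitted differences between genotypes in the lysosomal genes were at most 1.39-fold. None of the 32 passed the test of genotype (edgeR, adjusted p under 0.05), and 17 of 14835 genes tested did (0.115%). At an unadjusted p under 0.05 there were 12 of the 32, all higher in knockouts, and 5.76% of all genes. The log2 change was positive for 23 of the 32 (71.9%), against 49.5% of all genes, and its median was 0.17, against -0.0058 over all genes. Every knockout library stood above every control library for 5 of the 32 (15.6%), namely Cd68, Fuca1, Gm2a, Man2b1 and Naglu, against 1.88% of all genes, and below for 0 of the 32, against 1.41%. Other tools disagreed on the call. DESeq2 called 6 of the 32 higher, Cd68, Grn, Hexa, Laptm5, Man2b1 and Naglu, and 2.82% of all genes, while limma voom called none (0.175% of all genes), limma voom with quality weights none (0.31%), and the authors' deposited table called none of them (0.592%).

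By role, the glycosidases held 6 of the 12 genes at an unadjusted p under 0.05, and 9 of the 10 had positive log2 changes, with a median of 0.28. Man2b1 had 3776, 3909, 4250, 4083 and 3631 CPM in knockout microglia and 3226, 3317, 3387 and 3169 CPM in control microglia. The groups did not overlap, and the log2 change was 0.26 (SE 0.056, 1.20-fold, adjusted p = 0.208). Naglu (chromosome 11, 101070012 to 101077672, plus strand), the glucosaminidase of Sanfilippo syndrome type B, had 447, 460.2, 387, 464 and 360 CPM in knockouts and 298, 315, 337 and 266 CPM in controls. It did not overlap either, with a log2 change of 0.48 (SE 0.11, 1.39-fold, adjusted p = 0.238). Hexa had 1655, 1761, 1715, 1702 and 1448 CPM in knockouts and 1433, 1423, 1449 and 1340 CPM in controls, so that knockout replicate 5 lay within the range of the controls (log2 change 0.23, SE 0.066, adjusted p = 0.438). Fuca1, the alpha-fucosidase, had 393, 375, 389, 539.6 and 362 CPM in knockouts and 334, 335, 249 and 277.5 CPM in controls. Its groups were apart, replicate 4 being the highest knockout library (log2 change 0.46, SE 0.15, adjusted p = 0.585). Gaa and Gusb had log2 changes of 0.30 (SE 0.12) and 0.34 (SE 0.12), and Glb1, Neu1, Idua and Galc had values from -0.015 to 0.36 with SEs of 0.14 to 0.36.

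Outside the glycosidases, 6 more genes had an unadjusted p under 0.05, namely Gm2a, Grn, Npc2, Cd63, Cd68 and Laptm5. Grn had the knockout and control microglia values given above, with a log2 change of 0.26 (SE 0.072, 1.19-fold, adjusted p = 0.419), and the lowest knockout library lay below the highest control. Tpp1, the other gene of its role, had 0.089 (SE 0.098). Of the lipases and sphingolipid enzymes with their cofactors, Gm2a, the activator protein that lifts the ganglioside GM2 to beta-hexosaminidase, had 698 to 895 CPM in knockouts and 592 to 686 CPM in controls, without overlap (log2 change 0.26, SE 0.083, adjusted p = 0.605). Psap, the most abundant transcript of the list by union exon length, had a log2 change of -0.017 (SE 0.071), Asah1, the acid ceramidase, -0.044 (SE 0.090), and Ppt1, the palmitoyl-protein thioesterase, 0.0086 (SE 0.11). Smpd1 had 0.41 (SE 0.21, adjusted p = 0.900) and Lipa 0.063 (SE 0.19). The sulfatases Sgsh, Ids (iduronate sulfatase), Arsa and Arsb (arylsulfatase B) had values of -0.10, -0.086, 0.16 and 0.23, with SEs of 0.32, 0.29, 0.28 and 0.14. Of the cholesterol exporters, Npc2, the soluble carrier that hands cholesterol to Npc1, had 0.27 (SE 0.10, adjusted p = 0.738) and Npc1 -0.018 (SE 0.20).

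Among the membrane proteins, Laptm5 had 10596, 9174, 10547, 10715 and 9709 CPM in knockout microglia and 8104, 8511, 9390 and 8372 CPM in control microglia. Only knockout replicate 2 lay below the highest control, and the log2 change was 0.24 (SE 0.064, 1.18-fold, adjusted p = 0.375). Cd68 had 1563, 1468, 1427, 1551 and 1451 CPM in knockouts and 1407, 1266, 1327 and 1154 CPM in controls, without overlap (log2 change 0.21, SE 0.069, adjusted p = 0.605). Cd63, a tetraspanin of late endosomes, had 0.32 (SE 0.14, adjusted p = 0.863). Lamp1 and Lamp2, the main structural glycoproteins of the lysosomal membrane, had 0.085 (SE 0.076) and -0.044 (SE 0.063), and Scarb2, the receptor that carries glucocerebrosidase, had 0.12 (SE 0.13). Cln3, the membrane protein of juvenile neuronal ceroid lipofuscinosis, and Mcoln1 had -0.13 (SE 0.19) and -0.11 (SE 0.19).

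Summed over the 32 genes, the share of a library's counts was 3.82 ± 0.0902% in knockout microglia (3.69 to 3.92%) and 3.53 ± 0.15% in control microglia (3.34 to 3.70%; mean ± SD, n = 5 and 4). The ranges overlapped by a narrow margin. The glycosidases alone took 0.716 ± 0.0243% in knockout microglia and 0.612 ± 0.0121% in control microglia, without overlap. Man2b1 gave the most counts to this sum, with a mean of 3930 CPM in knockout and 3275 CPM in control microglia. Hexa was next, with 1656 CPM in knockout and 1411 CPM in control microglia. The sum of lipases and sphingolipid enzymes with their cofactors, in which Psap dominates, was 0.989 ± 0.0329% in knockout microglia and 1.02 ± 0.064% in control microglia. When the genes detected per library entered the fit as a covariate, the log2 change of Man2b1 was 0.10 and that of Laptm5 0.081, while Naglu stayed at 0.47. The number of genes with a count and the genotype cannot be told apart, since the groups did not overlap in it. Markers of monocytes, border macrophages and granulocytes, 16 in the list, summed to 199 to 666 CPM over the 15 with a count in knockout microglia and to 86.2 to 529.6 CPM over all 16 in control microglia, and their part in these values was not tested.

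**Figure D3:**
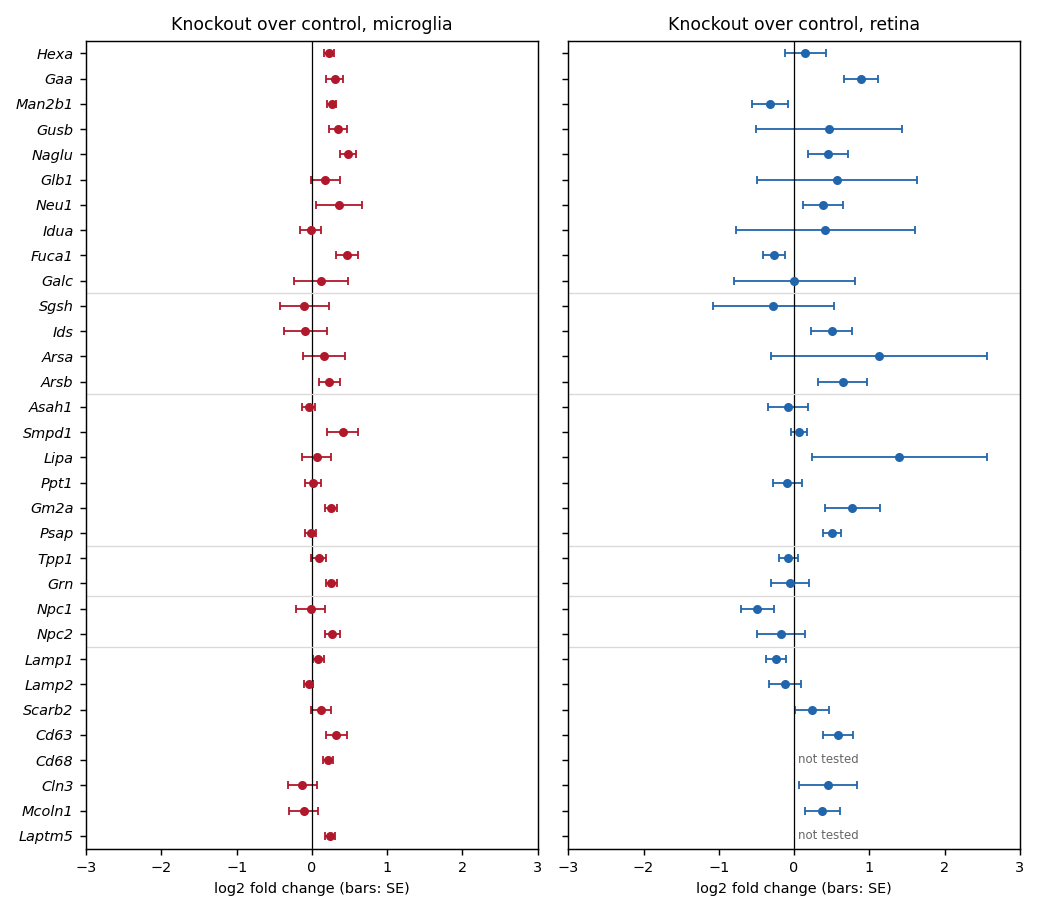
Log2 fold change of knockout over control for each lysosomal gene, microglia in the left panel and retina in the right panel, with bars for the SE. In microglia 23 of 32 points lie right of 0 and none beyond 0.48, and in retina many SEs are wider and Gaa, Lipa and Arsa lie farthest to the right.

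In the retina fraction, 30 of the 32 genes passed the filter on low counts, Cd68 and Laptm5 failing it, and none of the 30 passed the test of genotype, while 1.66% of 15332 genes did. At an unadjusted p under 0.05 there were 3 of the 30, Psap, Gaa and Cd63, all higher in knockouts, against 14.2% of all genes. The log2 change was positive for 19 of the 30 (63.3%), against 50.2% of all genes, with a median of 0.31, against 0.0028 over all genes. Without knockout retina replicate 3 the median over the list was 0.14. Every knockout library stood above every control library for Gaa and Psap (6.67% of the 30), a share near the 6.02% of all genes, and below for 0 of the 30, against 2.69%. DESeq2 called Gaa, Psap and Cd63 (9.34% of all genes called), limma voom called Psap (2.37%), limma voom with quality weights called 0 (1.43%), and the authors' deposited table called Gaa and Psap (5.58%).

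Psap (chromosome 10, 60277627 to 60302597, plus strand) had 796.0, 797, 915, 882 and 718 CPM in knockout retina and 447, 564, 685 and 552 CPM in control retina. The groups were apart, and the log2 change was 0.51 (SE 0.12, 1.42-fold, adjusted p = 0.0808). Gaa (chromosome 11, 119267887 to 119285454, plus strand) had 239, 264, 293, 236 and 223 CPM in knockout retina and 76.6, 114, 166 and 173 CPM in control retina. It was likewise apart, with a log2 change of 0.88 (SE 0.23, 1.85-fold, adjusted p = 0.0957). In the authors' deposited table the log2 change of Psap was 0.50, with an adjusted p of 0.00883, and that of Gaa was 0.88, with an adjusted p of 0.00246.

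The next 4 genes by p all had overlapping groups. Cd63 had 65.1, 59.3, 61.8, 79.5 and 50.9 CPM in knockout retina and 37.1, 30.4, 39.75 and 56.8 CPM in control retina (log2 change 0.58, SE 0.21, adjusted p = 0.213). Gm2a had 50.8, 35.9, 43.5, 61.7 and 40.4 CPM in knockout retina and 23.6, 9.79, 38.3 and 33.6 CPM in control retina (log2 change 0.78, SE 0.36, adjusted p = 0.384). Control replicates 1 and 2 were the low libraries of Gm2a. Arsb had 34.4, 38.1, 35.3, 23.2 and 40.9 CPM in knockout retina and 35.8, 12.1, 20.2 and 17.4 CPM in control retina, control replicate 1 standing among the knockouts (log2 change 0.64, SE 0.33, adjusted p = 0.434). Npc1 had 40.3, 59.5, 31.0, 34.2 and 48.3 CPM in knockout retina and 53.2, 67.9, 66.3 and 46.5 CPM in control retina, the lowest value of the list (log2 change -0.49, SE 0.22, adjusted p = 0.364). Of the remaining genes, the abundant Smpd1 had a log2 change of 0.061 (SE 0.11), Tpp1 -0.075 (SE 0.12) and Lamp1 -0.24 (SE 0.14). Lipa and Arsa had the largest values, 1.40 and 1.13, with SEs of 1.16 and 1.44.

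Markers of rods, cones and bipolar cells moved with genotype in the retina libraries. All 18 rod markers had a count, and they summed to 146720 to 181923 CPM in knockout retina and to 185095 to 271888 CPM in control retina, with 6 of the 18 called lower. The 11 cone markers summed to 2774 to 6558 CPM in knockout retina and 868 to 1897 CPM in control retina, with 4 called higher, and the 11 bipolar markers to 1870 to 3288 CPM in knockout retina and 486 to 1084 CPM in control retina, with 7 called higher. None of these lists had a marker at 0 in every retina library of a group, and none overlapped between genotypes. Over all genes tested, 1.66% were called. The 12 Mueller glia and astrocyte markers summed to 3334 to 6403 CPM in knockout retina and 1685 to 4331 CPM in control retina. The 12 endothelial and pericyte markers summed to 223 to 523 CPM in knockout retina and 128 to 232 CPM in control retina. Both sums overlapped between genotypes, and 0 of the 11 tested in each list were called. The 13 amacrine and ganglion markers summed to 233 to 365 CPM in knockout retina and 75.4 to 184 CPM in control retina, without overlap. Of 12 tested, 1 was called higher. Their mean log2 CPM did overlap, at 1.76 to 2.35 in knockout retina and 0.51 to 2.38 in control retina. The 16 markers of monocytes, border macrophages and granulocytes summed to 16.3 to 19.0 CPM in knockout retina (10 at 0 throughout). In control retina they summed to 0.22 to 5.10 CPM (11 at 0), without overlap, but only 2 were tested and 0 called. With the rod level as a covariate, the log2 change of Psap was 0.47 and that of Gaa 0.67, at an adjusted p of 0.9999 for both. Cd63, Gm2a and Npc1 changed sign, to -0.095, -0.11 and 0.26, and the median over the 30 was 0.17. Genotype and rod level cannot be told apart in these libraries, since the rod level did not overlap between genotypes.

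Summed over the 32 genes, the share of counts was 0.338 ± 0.0149% in knockout retina (0.314 to 0.353%) and 0.278 ± 0.0182% in control retina (0.259 to 0.296%), without overlap. The lipases and sphingolipid enzymes with their cofactors, Psap among them, took 0.145 ± 0.0102% in knockout retina and 0.107 ± 0.0105% in control retina. The proteases and progranulin took 0.0414 ± 0.00501% in knockout retina and 0.0405 ± 0.00167% in control retina, a difference below the SD of either group.

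**Figure D4:**
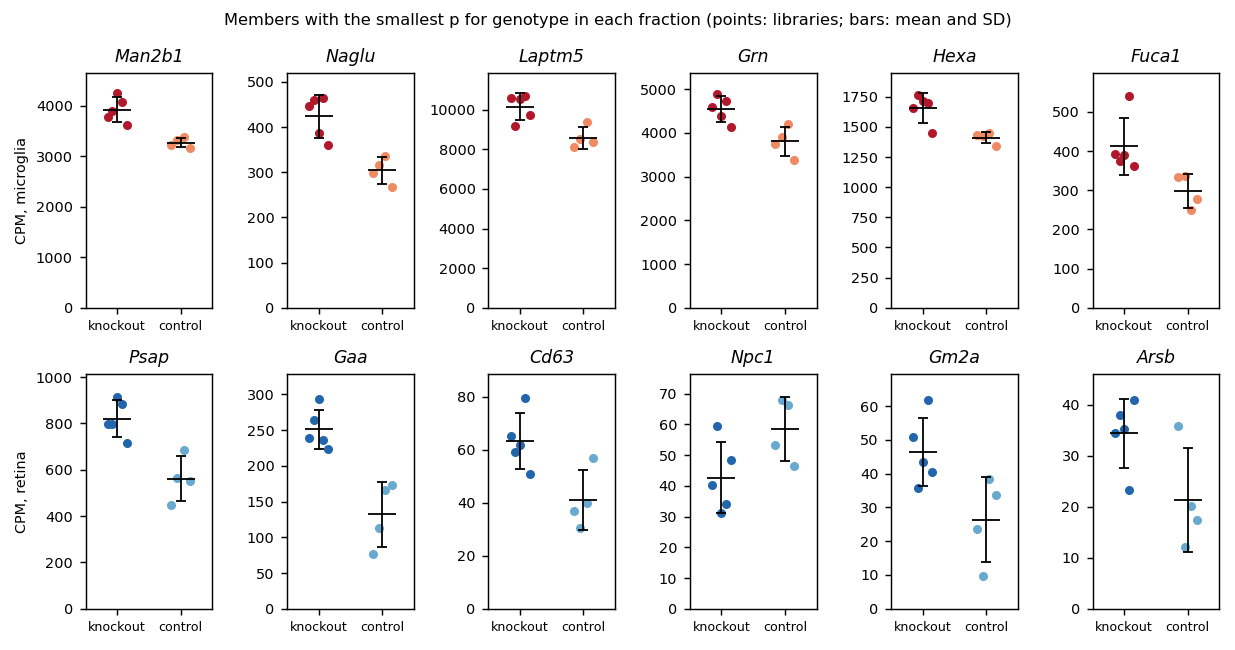
CPM of the 6 genes with the smallest p for genotype in microglia (top row) and in retina (bottom row), with a point per library, the mean and the SD, knockout left of control. Man2b1, Naglu and Fuca1 in microglia and Psap and Gaa in retina show knockout libraries all above the controls, and the other 7 panels overlap.

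**Figure D5:**
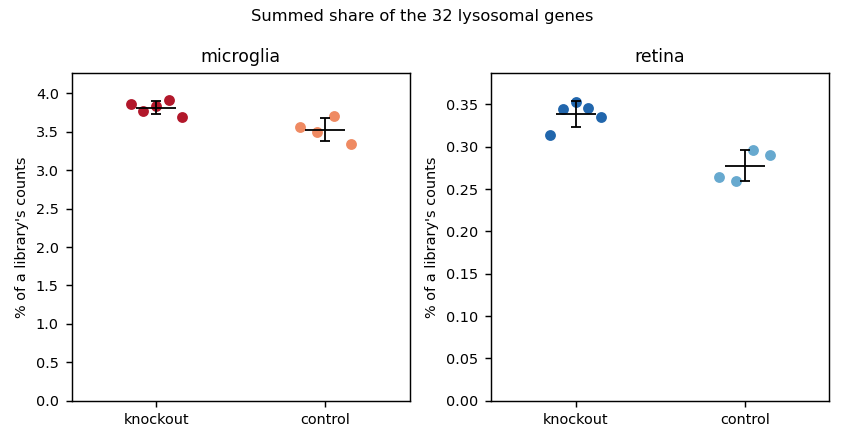
Percent of each library's counts taken by the 32 lysosomal genes together, with a point per library, the mean and the SD, knockout left of control, in microglia (left) and retina (right). The microglia groups overlap between 3.69 and 3.70%, and the retina groups are apart.

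Whether the effect of genotype differed between fractions was tested with the interaction over all 18 libraries, as the change in microglia minus the change in retina. None of the 32 genes passed, and 0.469% of 18128 genes did. At an unadjusted p under 0.05 there were 4 of the 32, Psap, Fuca1, Gaa and Man2b1, and 12.5% of all genes, so the share was that of the background. Psap, with the retina values given above, had 8361, 8788, 8648, 8465 and 7377 CPM in knockout microglia and 8687, 8577, 9087 and 7340 CPM in control microglia, which overlapped. For Psap the difference was -0.56 (SE 0.16, adjusted p = 0.128), with fits of each fraction giving -0.017 in microglia and 0.51 in retina. Fuca1 had 62.5, 80.7, 69.6, 89.9 and 58.3 CPM in knockout retina and 78.6, 95.6, 84.9 and 78.7 CPM in control retina, which overlapped, while its microglia groups were apart. For Fuca1 the difference was 0.69 (SE 0.22, adjusted p = 0.187), with 0.46 in microglia and -0.27 in retina. Gaa, at -0.62 (SE 0.27, adjusted p = 0.352), shared the sign of Psap, and Man2b1, at 0.55 (SE 0.25, adjusted p = 0.368), that of Fuca1. DESeq2 called Fuca1 and Psap (6.11% of all genes called), and limma voom called 0 of the 32 without quality weights (0.8%) and 0 with them (0.706%).

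Changes were also set beside the promoter windows. The 8 genes with CACGTG had log2 changes from -0.13 to 0.48 in knockout microglia relative to control microglia, with a median of 0.12 and 5 positive, and the 22 genes with a window without it had a median of 0.23 with 18 positive. In retina the 8 had a median of 0.45 with 6 positive, and 20 genes without it had a median of 0.19 with 13 positive. These are descriptions, with no test. Lamp1, with 4 elements in the window printed above, and Mcoln1, with 2, had microglia values of 0.085 and -0.11, and Naglu, with 1, had 0.48.

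In the 4 lists of genes around these, edgeR called none for genotype in either fraction, while DESeq2 called some of those named here. In microglia, positive log2 changes were found for 23 of 36 other lysosomal hydrolases and cofactors (median 0.086), 14 of 18 V-ATPase subunits (0.16), 6 of 17 genes of enzyme sorting (-0.13) and 11 of 18 genes of TFEB-family factors and nutrient sensing (0.092). The smallest p in each list belonged to Manba, a beta-mannosidase, at -0.44 (SE 0.21, adjusted p = 0.886), Atp6ap1, an accessory subunit of the pump, at 0.24 (SE 0.074, adjusted p = 0.552), Ap1g1, a subunit of the adaptor that loads enzymes at the Golgi, at -0.42 (SE 0.13, adjusted p = 0.491), and Lamtor1, which anchors the nutrient sensor on the lysosome, at 0.37 (SE 0.12, adjusted p = 0.611). DESeq2 called Atp6ap1 (adjusted p = 0.0233) and Lamtor1 (adjusted p = 0.0274). Other genes of these lists with a small p were the pump subunit Atp6v0b at 0.29 (SE 0.094), which DESeq2 also called (adjusted p = 0.0109), the sorting receptor Sort1 at -0.39 (SE 0.16) and Rptor, a subunit of the nutrient-sensing complex, at -0.30 (SE 0.11). Tfeb had a log2 change of 0.0051 (SE 0.25) and Tfe3 of 0.082 (SE 0.13).

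In retina, positive log2 changes were found for 18 of 35 other hydrolases and cofactors (median 0.014), 12 of 18 pump subunits (0.15), 10 of 18 sorting genes (0.13) and 9 of 18 genes of TFEB-family factors and nutrient sensing (-0.020). The smallest p belonged to Atp6v0a1, the pump subunit typical of neurons, with 553 CPM in knockout retina and 360 CPM in control retina (log2 change 0.58, SE 0.13, edgeR adjusted p = 0.0629), without overlap. Other tools called it, with adjusted p-values of 0.000621 in DESeq2, 0.0403 in limma voom and 0.0471 in limma voom with quality weights. Atp13a2, a lysosomal polyamine transporter, had 222 CPM in knockout retina and 135 CPM in control retina (0.68, SE 0.18, adjusted p = 0.103), also without overlap. Cln6, a protein of enzyme export from the endoplasmic reticulum, had 1.04 (SE 0.32, adjusted p = 0.152), Lamtor3 -0.57 (SE 0.19, adjusted p = 0.187), Vps35 -0.43 (SE 0.17), Ggh -0.63 (SE 0.25), Lamtor5 -0.39 (SE 0.14) and Atp6v0c 0.34 (SE 0.10). Of these, DESeq2 also called Atp13a2 (adjusted p = 0.0113), Atp6v0c (0.0201), Cln6 (0.0201) and Lamtor3 (0.0478). With the rod level as a covariate Cln6 and Ggh changed sign, to -0.031 and 0.067.

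Several genes of the list share their locus with another gene, and whether counting used strand is not given in the sources used here. Among them, Idua overlaps Dgkq and Slc26a1 on the opposite strand, Cln3 overlaps Apobr, Ppt1 overlaps Cap1, Grn overlaps Fam171a2 and Sgsh overlaps Card14, also on the opposite strand, and Glb1 overlaps Tmppe on the same strand. The overlap is that of whole gene spans, and whether exons are shared was not examined. Whether reads of such partners entered the counts of the lysosomal genes was not tested.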

How the data were processed

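Counts for the 18 libraries were used as the authors deposited them, unnormalised and by gene, in 55774 lines of which 287 repeated a gene with the same counts, leaving 55487 genes. The submitters' processing notes name DRAGEN, STAR 2.7.9a, Subread, featureCounts 2.0.32, edgeR, limma and GRCm38, without their roles. The labels name amplification with a SMARTer Ultra Low RNA kit, so counts are not independent molecules, and the use of strand in counting is not given in the sources used here. The authors also deposited a table of log2 fold changes and adjusted p-values of knockout over control for each fraction, per the file headers, with a likelihood ratio column.

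Differences were assessed by quasi-likelihood in edgeR 4.0.16 (R 4.3.3), after the filter on low counts by group and TMM scaling within each fit, with Benjamini-Hochberg adjustment over all genes tested and a threshold of 0.05. Each SE was taken as the log2 change divided by the square root of F. Genotype was tested within each fraction, fraction within each genotype, and the interaction over all 18 libraries. Printed CPM used TMM factors of all 18 libraries, and TPM used union exon lengths of GENCODE M21, with the longest transcript as an alternative. Alternatives were DESeq2 1.42.0, limma 3.58.1 voom with and without quality weights, other scalings and filters, covariates, the replicate number as a block and leaving out each library. Only the main edgeR fits of genotype within a fraction and of fraction within a genotype were tested on simulated data. The precision is limited by 4 or 5 libraries per group, at 32277156 to 47563119 counts each.

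The 32 genes and the lists around them were chosen with earlier results of these data known. Except for retina values of Cd68 and Laptm5, per-library values were given for the 6 genes with the smallest p in each genotype comparison. They were also given for those with the 6 largest and 6 smallest fraction changes in controls, and the 4 with the smallest interaction p. From each list around them the 2 genes with the smallest p per genotype comparison were named, except for an item that is not reported here. Others, such as Idua, Arsa, Gm2a and Cd68 in microglia, were chosen after their values were seen.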

Additional observations from a re-analysis of the deposited data

Results flagged for a closer look

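In 8 of the 126 gene and group pairs examined, a single library stood apart from the rest of its group. The criterion was the gap to the nearest other library relative to the range of the group, which chance meets in about 1 of 20 groups. Fuca1 had 539.6 CPM in knockout microglia replicate 4, against 362 to 393 CPM in the other knockout microglia libraries. Arsa had 175 CPM in knockout microglia replicate 2, against 70.6 to 97.9 CPM in the others of that group. Ids had 79.3 CPM in control microglia replicate 4, against 149 to 154 CPM in the others.

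In retina, Sgsh had 16.9 CPM in knockout replicate 4, against 2.17 to 5.60 CPM in the other knockout retina libraries. Grn had 31.5 CPM in knockout retina replicate 1, against 51.7 to 59.1 CPM in the others. Cln3 had 17.6 CPM in control retina replicate 2, against 9.00 to 10.5 CPM in the others. Laptm5 had 1.91 CPM in knockout retina replicate 4, against 0 to 0.051 CPM in the others, and 1.96 CPM in control retina replicate 4, against 0 to 0.052 CPM in the others. What sets these libraries apart was not tested.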

How the results depend on the processing

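Over the gene results of the 5 comparisons, 998 of 1030 alternatives kept direction and side of the threshold, 2 lost a call, 25 gained one and 5 reversed. The cause of the changes was not tested. For genotype in microglia, 17 genes in all were called, against 449 with DESeq2 (6 of the 32 lysosomal genes), 32 in a fit over all 18 libraries, 26 with limma voom, 46 with quality weights, 8 without a filter, 5 with the number of genes detected as covariate and 2 with the replicate block. Leaving out a library gave 4 (without control microglia replicate 3) to 21 genes and a median change over the list of 0.14 to 0.23. For genotype in retina, 255 genes were called, against 1612 with DESeq2 (3 of the list), 120 without a filter, 2 with the microglia level or the number of genes detected as covariate, the second chosen after seeing the data, and 0 with the rod level as covariate or the replicate block. The list held 2 calls in the fit over all 18 libraries, Gaa and Psap, and 1 with limma voom. Its median of 0.31 was 0.14 with the number of genes detected and 0.17 with the rod level as covariate, which reversed Cd63 (-0.095), Cln6 (-0.031), Ggh (0.067), Gm2a (-0.11) and Npc1 (0.26). Leaving out a library gave 96 (without knockout retina replicate 3) to 342 genes and medians of 0.14 to 0.41, and without control retina replicate 1 Atp6v0a1 passed at 0.72.

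The labels do not say whether numbers shared across groups mark the same animal. Correlations of the deviations of same-numbered libraries ran from -0.11 to 0.080. A library matched its own number best in 0 of 4, 1 of 4, 2 of 4 and 2 of 5 pairs. These values cannot decide on pairing, since libraries of the same animal need not deviate together. With the replicate block, fraction in controls lost Lipa (adjusted p = 0.0566). Without the 2 control libraries numbered 1, which differ in Xist (42.0 CPM in microglia and 0.077 CPM in retina), a choice made after seeing the data, the block gave 2457 genes, 22 of the list higher, a list median of 3.66 and no call for Gusb (adjusted p = 0.0553). Medians of the list for fraction in knockouts were 3.35 with limma voom and 3.30 with quality weights, and leaving out a library gave 3.06 to 3.13 there and 3.22 to 3.56 in controls. The interaction called 85 genes, against 1170 with DESeq2 (1 of the list higher and 1 lower), 145 with limma voom, 128 with quality weights, 9 with the replicate block and 3 with the block and without the control libraries numbered 1. Its list median of -0.041 was -0.20, -0.17, -0.16 and -0.13 in these last 4, and leaving out a library gave 51 (without control microglia replicate 3) to 143 genes (without control retina replicate 4) and medians of -0.17 to 0.014.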
